A study of Homo sapiens with 4 samples.

Results

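The genes of the replacement histone variants encode histones that can take the place of the standard histones in nucleosomes or between them. The 10 genes were chosen by symbol and not by their values: H2AFX (H2A.X), H2AFZ and H2AFV (both H2A.Z), H2AFY and H2AFY2 (macroH2A), H2AFJ (H2A.J), H3F3A and H3F3B (both H3.3), and H1F0 and H1FX (the linker histones H1.0 and H1x). All 10 were listed among 26364 rows of the expression files. Of these, 9 had a mean of at least 1 RPKM (reads per kilobase of gene, scaled to the reads of the sample) and were tested. H3F3A was listed at 0 in every sample and could not be tested.

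The standard histones are made mainly in S phase, when new DNA is packed. Replacement variants are made throughout the cell cycle, from genes that mostly give polyadenylated transcripts, and are put into chromatin by dedicated chaperones and remodelers. H2A.X carries the phosphorylation (γH2AX) that marks broken DNA, H2A.Z and H3.3 are found at promoters and enhancers, macroH2A is found on repressed chromatin, and H1.0 is known for its accumulation in cells that leave the cycle and differentiate.

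The samples were RNA of BE(2)C cells, a human neuroblastoma line with amplified MYCN, sequenced after transfection with siRNA. The Ctrl group (2 samples, genotype given as wild type) received a non-targeting siRNA and the MYCN KD group (2 samples) received siRNA against the oncogene MYCN. In both groups the labels give 80 nM siRNA with a lipid transfection reagent for 6 h and RNA taken on the next day, whereas the study's methods give another concentration. All samples come from 1 cell line, and the study's methods speak of biological replicates without saying whether they were separate cultures, so the p-values measure the spread between these samples only, which may be technical. The question asked of each gene was whether its transcript level differed between Ctrl and MYCN KD cells.

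The deposited values correspond to totals of 29055819 to 34142988 reads per sample, after the authors' normalization. The lowest count for a tested variant gene in 1 sample was 2203 reads (H2AFJ). The counting error, as the half-width of a 95% interval, was at most 4.18% for any of these genes. This error covers counting only, and it treats counts recovered after normalization as if they were raw reads. MYCN was at 1068 and 1073 RPKM in the Ctrl samples and at 720.2 and 718 RPKM in MYCN KD (log2 fold change -0.57, SE 0.0286, adjusted p = 0.00361 by limma), which checks the labels. Replicate 1 of Ctrl and replicate 1 of MYCN KD deviated from their group means as mirror images (r = -0.98 across 11409 genes, which are not independent), so the replicate error carries less independent information than 2 separate samples a group would give. All 12 adrenergic neuroblastoma markers were tested and detected. Of these, 7 were higher and 2 lower in MYCN KD by limma, beside 25.3% higher and 22.8% lower of all tested genes. The summed level of these markers was 3774 to 4068 RPKM in the Ctrl samples and 5321 to 5721 RPKM in MYCN KD. The endothelial markers summed to at most 0.64 RPKM, the epithelial markers to at most 0.42 RPKM (nearly all of it EPCAM), the leukocyte markers to 3.53 to 4.33 RPKM in the Ctrl samples and 9.45 to 11.5 RPKM in MYCN KD, and the fibroblast markers to 232.8 to 238.9 RPKM in the Ctrl samples and 276.6 to 283.4 RPKM in MYCN KD. Most of the leukocyte sum was CD68, the 1 of 5 leukocyte markers above the filter, and the pan-leukocyte PTPRC was at no more than 0.00464 RPKM. Most of the fibroblast sum was THY1, also a neuronal gene. Of 7 fibroblast markers 5 were tested and 4 were called higher (25.3% of all tested genes), while COL1A2 was at no more than 0.0254 RPKM. The part of these shifts in the levels of the variant genes was not tested.

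The variant genes are spread over 10 chromosomes, and 4 of them (H2AFX, H2AFJ, H1F0 and H1FX) have a single exon in the canonical transcript. Promoter sequences from RefSeq (table of GRCh38.p14) were found for 9 of the 10. H1F0 had none, so these 9 genes include the untested H3F3A. The 250 bases before the start were placed on GRCh37, the build of the files, by exact match. The 5 printed here are those with at least 3 copies of CCAAT, a letter string found in promoters of many cell-cycle and histone genes. They include genes that rose, genes that fell and genes with no call. The starts are those of RefSeq and can differ from the GENCODE gene positions given below. The H3F3B window thus lies inside that gene's extent, and the H2AFZ window lies partly inside its own. Each is given from 5′ to 3′ on the gene's own strand, with CCAAT (or ATTGG, the same letters on the other strand) and TATAAA in capitals.
H2AFX (chr11:118966176-118966425, minus strand): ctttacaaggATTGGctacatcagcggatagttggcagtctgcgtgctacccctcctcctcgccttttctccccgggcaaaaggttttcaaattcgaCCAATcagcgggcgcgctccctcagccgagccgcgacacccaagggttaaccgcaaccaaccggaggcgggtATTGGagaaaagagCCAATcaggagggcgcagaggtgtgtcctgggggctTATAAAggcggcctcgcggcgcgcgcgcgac
H2AFZ (chr4:100871433-100871682, minus strand): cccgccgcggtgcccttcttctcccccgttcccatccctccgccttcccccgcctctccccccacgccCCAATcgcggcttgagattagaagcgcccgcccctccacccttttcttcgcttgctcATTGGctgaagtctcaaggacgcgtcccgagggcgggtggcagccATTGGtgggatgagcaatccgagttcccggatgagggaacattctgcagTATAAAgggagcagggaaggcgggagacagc
H2AFV (chr7:44887687-44887936, minus strand): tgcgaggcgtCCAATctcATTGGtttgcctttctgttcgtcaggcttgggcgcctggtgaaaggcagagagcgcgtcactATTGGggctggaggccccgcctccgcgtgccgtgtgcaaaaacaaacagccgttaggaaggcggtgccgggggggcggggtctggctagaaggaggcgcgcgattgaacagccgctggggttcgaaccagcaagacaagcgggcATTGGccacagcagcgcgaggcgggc
H2AFJ (chr12:14927089-14927338, plus strand): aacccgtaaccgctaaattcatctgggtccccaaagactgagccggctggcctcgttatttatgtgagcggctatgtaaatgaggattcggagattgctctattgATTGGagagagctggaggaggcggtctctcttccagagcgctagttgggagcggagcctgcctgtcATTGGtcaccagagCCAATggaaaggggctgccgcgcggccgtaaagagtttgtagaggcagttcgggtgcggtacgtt
H3F3B (chr17:73775861-73776110, minus strand): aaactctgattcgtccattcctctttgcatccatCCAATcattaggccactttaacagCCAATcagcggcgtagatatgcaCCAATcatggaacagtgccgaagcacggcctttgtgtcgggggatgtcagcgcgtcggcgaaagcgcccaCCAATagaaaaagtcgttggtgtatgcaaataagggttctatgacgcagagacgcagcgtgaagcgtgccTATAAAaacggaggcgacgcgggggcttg

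H2AFX, H2AFV and H3F3B hold 4 copies of CCAAT and H2AFZ and H2AFJ hold 3. Of 35116 RefSeq promoter windows of the same length, 2.93% hold at least 3 copies and 0.874% at least 4. H2AFY, H2AFY2 and H1FX hold 0 copies before their first listed start, and H2AFY holds 2 before its second listed start. H3F3A holds 1 copy before its first listed start. TATAAA begins 31 bases before the start in H2AFX, H2AFZ and H1FX and 29 bases before it in H3F3B, and 10.7% of all windows hold it. CACGTG, the E-box letters that MYC proteins are known to prefer, was in 0 of the 9 genes' windows on either strand, against 6.34% of all windows. H1F0 is not among these 9 genes. With so few genes, a count of 0 does not set them apart from that share. Each string was searched on both strands, and no matches overlapped in the windows printed. The 50 bases after the start were not searched. A match of letters is a description and not a binding site.

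**Figure D1:**
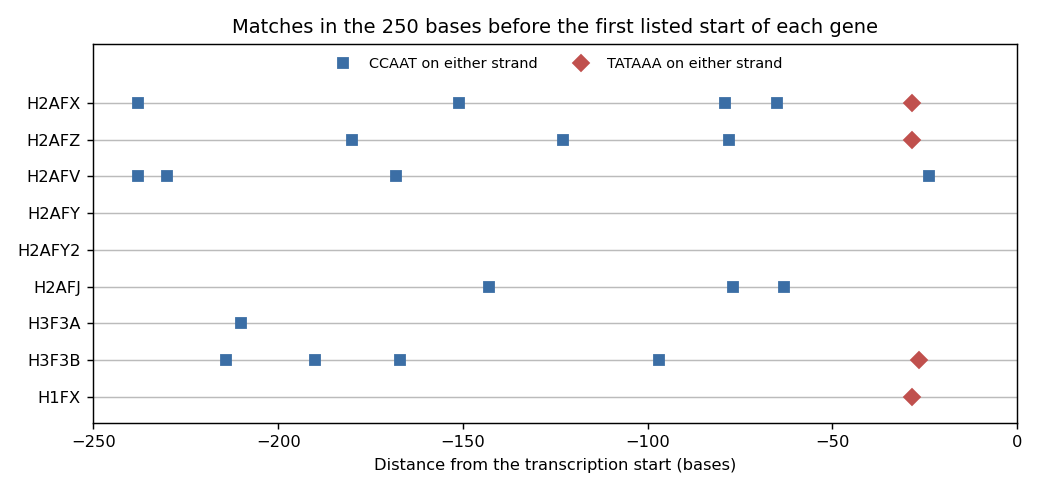
Matches to CCAAT (squares) and TATAAA (diamonds) on either strand, drawn by distance in bases from the first listed start of 9 variant genes. H3F3A is among them, and H1F0 had no sequence. H2AFX, H2AFZ and H3F3B hold both strings, H1FX holds TATAAA only, and H2AFY and H2AFY2 hold neither.

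Of the 9 tested variant genes, 3 were higher in MYCN KD (H2AFJ, H3F3B and H1F0) and 3 were lower (H2AFX, H2AFY and H2AFY2), while H2AFZ, H2AFV and H1FX did not pass the threshold of 0.05. Of all 11409 tested genes, 48.1% passed, with 25.3% higher and 22.8% lower, and the counts of the 9 genes are given beside these shares as a description. The levels of the groups did not overlap for 7 of the 9 genes, against 76.2% of all tested genes. The median log2 fold change was 0.13 for the 9 genes and 0.03 for all tested genes, with the middle of the distribution of all genes running from -0.23 to 0.28 between its quartiles. The median of the 9 genes is the value of H2AFV and fell to 0.01 without Ctrl replicate 1 or MYCN KD replicate 1 and to 0.07 without Ctrl replicate 2 or MYCN KD replicate 2. RNA was measured in bulk, so that less RNA per cell and fewer cells of a kind cannot be told apart, and each level is relative to all reads of its sample.

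**Figure D2:**
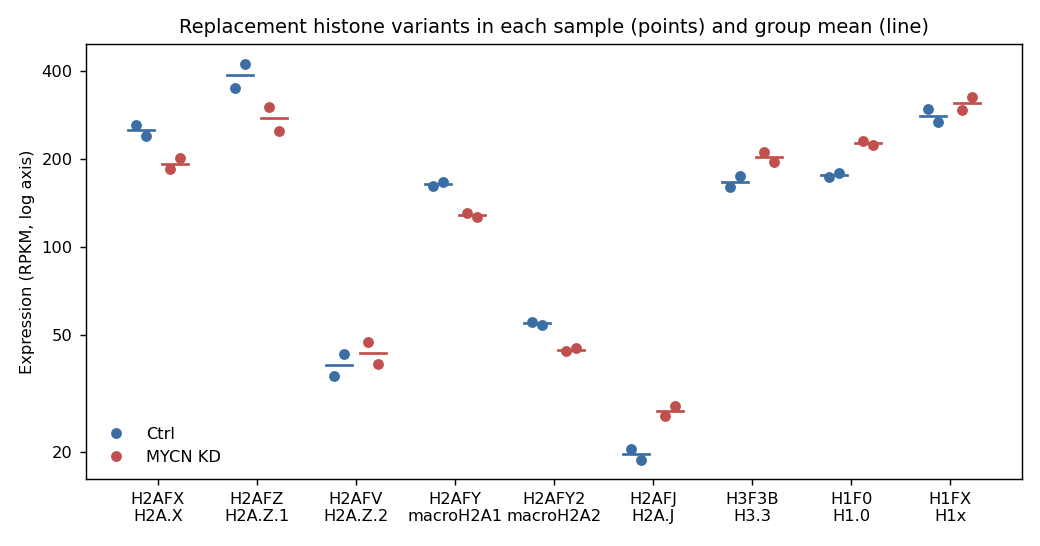
RPKM on a log axis for the 9 tested variant genes in the 2 Ctrl and 2 MYCN KD samples (points), with the group mean as a line. H2AFV and H1FX overlap between groups, the other 7 do not, and H3F3A is left out because it is listed at 0.

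**Figure D3:**
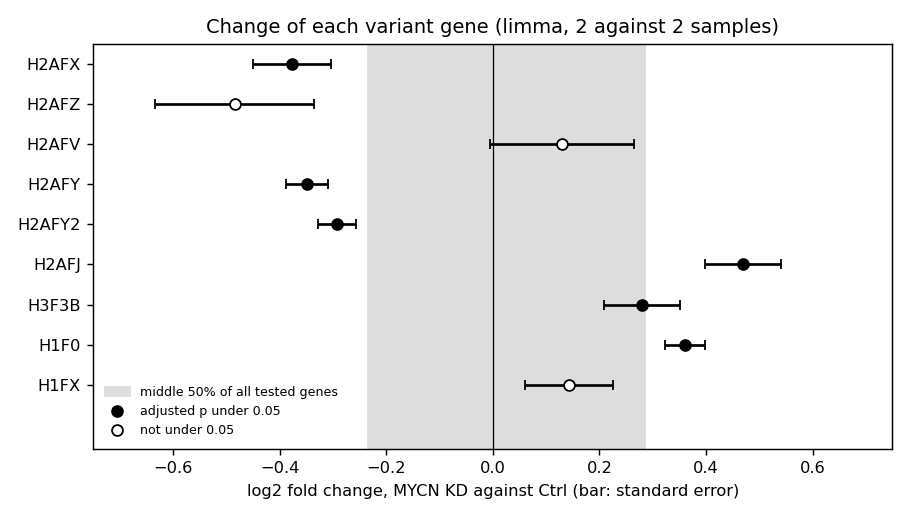
Log2 fold change of each tested variant gene, MYCN KD against Ctrl, with its standard error as a bar and the range between the quartiles of all tested genes in grey. Filled points (H2AFX, H2AFY, H2AFY2, H2AFJ, H3F3B and H1F0) passed an adjusted p of 0.05 by limma, and open points did not.

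H2AFX encodes H2A.X, the variant that is phosphorylated beside DNA breaks. The gene is on chromosome 11 (GRCh37), from 118964584 to 118966175 on the minus strand. Its level was 261.8 and 239.6 RPKM in the Ctrl samples and 184.4 and 201.1 RPKM in MYCN KD. Both MYCN KD samples were below both Ctrl samples. The mean fell by 23.1%, from 250.7 ± 15.7 to 192.8 ± 11.8 RPKM (SD, n = 2 each), with a log2 fold change of -0.38 (SE 0.0733, 95% interval -0.59 to -0.16, adjusted p = 0.0265 by limma). A smaller absolute change was measured for 65.9% of all tested genes. These values are transcript levels and do not measure the phosphorylated protein.

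The next list holds 15 genes that write, read or erase the γH2AX mark or act beside it in the response to breaks. Of these 14 were tested, 3 fell and 0 rose by limma, beside 22.8% lower and 25.3% higher of all tested genes. The lower count is thus near the share of genes at large. At an unadjusted p under 0.05, 5 were lower and 1 was higher, and limma voom on recovered reads called 3 lower and 0 higher. Quantile normalization called 6 lower and 1 higher. MRE11A, a nuclease of the break sensor complex, fell from 6.35 and 7.11 RPKM to 3.73 and 3.35 RPKM (log2 fold change -0.77, adjusted p = 0.00808). PRKDC, a kinase that phosphorylates H2A.X, fell by 0.47 on the log2 scale (adjusted p = 0.0147), and RNF8, the ubiquitin ligase recruited through the mark, fell by 0.38 (adjusted p = 0.0311). The other H2A.X kinases did not pass, with log2 fold changes of 0.15 for ATM (adjusted p = 0.295) and -0.07 for ATR (adjusted p = 0.731). MDC1, the direct reader of the mark, was listed at no more than 0.0175 RPKM and was not tested. Whether reads of MDC1 were lost in counting was not examined, so this value is not read as absence of its transcript. The median log2 fold change of the 14 genes was -0.16, against 0.03 for all tested genes.

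The H2A.Z proteins come from H2AFZ (H2A.Z.1) and H2AFV (H2A.Z.2), which differ at few residues. H2AFZ lies on chromosome 4 from 100869243 to 100871512, and H2AFV on chromosome 7 from 44866390 to 44887686, both on the minus strand with 5 exons. H2AFZ was at 349.0 and 423.4 RPKM in the Ctrl samples and at 301.0 and 250.1 RPKM in MYCN KD. Its Ctrl samples were the highest levels of any tested variant gene, and both MYCN KD samples were lower, but the replicates of each group lay far apart. The means were 386.2 ± 52.6 and 275.5 ± 36.0 RPKM, and the log2 fold change of -0.48 (SE 0.149, 95% interval -0.92 to -0.05) did not pass after adjustment (adjusted p = 0.0703 by limma). Without any single one of the 4 samples the change was -0.62 to -0.35 with adjusted p from 2.98e-07 to 0.00711, where the spread rested on 1 residual degree of freedom.

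H2AFV was at 36.2 and 43.2 RPKM in the Ctrl samples and at 47.2 and 39.8 RPKM in MYCN KD. The groups overlapped, and the log2 fold change was 0.13 (SE 0.135, 95% interval -0.27 to 0.53, adjusted p = 0.468 by limma). Leaving out replicate 1 of either group brought it to 0.01, and leaving out replicate 2 of Ctrl or MYCN KD to 0.26 or 0.25, none of which passed. The replicates of H2AFV moved with those of H2AFZ: in Ctrl, replicate 1 differed from its group mean by -0.139 (H2AFZ) and -0.125 (H2AFV) on the log2 scale, and in MYCN KD by 0.133 and 0.121. The ratio of the genes within a sample spread less between replicates than either level. H2AFZ was 9.65 and 9.80 times H2AFV in the Ctrl samples and 6.37 and 6.28 times H2AFV in MYCN KD. The ratio differed by -0.62 on the log2 scale, with no overlap. An exact two-sided permutation test gave p = 0.3333, the smallest that 2 against 2 samples allow, so this test could not pass 0.05.

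H2A.Z is put into nucleosomes by the SRCAP and TIP60-p400 complexes and removed by ANP32E, and the remodeler INO80 also acts on it. All 13 of these genes were tested, of which 5 fell and 0 rose by limma (22.8% and 25.3% of all tested genes), with a median log2 fold change of -0.16. RUVBL1, an ATPase shared by these complexes, fell from 210.4 and 201.1 RPKM to 118.2 and 123.7 RPKM (log2 fold change -0.76, SE 0.0454, adjusted p = 0.00415). Its partner ATPase RUVBL2 fell by 0.55 on the log2 scale (SE 0.108, adjusted p = 0.0272). YEATS4, INO80 and EP400, the motor of TIP60-p400, fell by 0.45, 0.37 and 0.24. SRCAP itself had overlapping groups (-0.13, adjusted p = 0.285), as did ANP32E (0.01, adjusted p = 0.949).

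**Figure D4:**
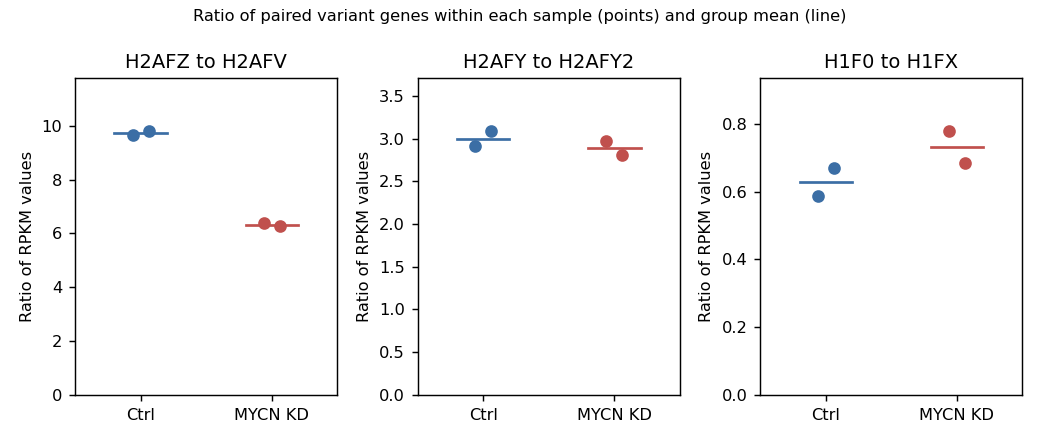
Ratio of the RPKM values of paired variant genes within each sample (points) with the group mean (line), for Ctrl and MYCN KD, on axes that start at 0. H2AFZ to H2AFV is between 9.65 and 9.80 in the Ctrl samples and between 6.28 and 6.37 in MYCN KD, H2AFY to H2AFY2 overlaps between groups, and H1F0 to H1FX does not overlap.

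MacroH2A carries a large domain outside the nucleosome and comes from H2AFY (macroH2A1) and H2AFY2 (macroH2A2). H2AFY lies on chromosome 5 from 134670071 to 134735604 on the minus strand, and H2AFY2 on chromosome 10 from 71812300 to 71872038 on the plus strand, each with 9 exons. H2AFY was at 161.6 and 167.5 RPKM in the Ctrl samples and at 131.1 and 126.8 RPKM in MYCN KD, with no overlap. Its mean fell by 21.7%, with a log2 fold change of -0.35 (SE 0.0395, 95% interval -0.47 to -0.23, adjusted p = 0.00912 by limma).

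H2AFY2 was at 55.6 and 54.3 RPKM in the Ctrl samples and at 44.1 and 45.2 RPKM in MYCN KD. These groups did not overlap either, and the gene fell by 0.29 on the log2 scale (SE 0.036, 95% interval -0.40 to -0.19, adjusted p = 0.0107 by limma). Without Ctrl replicate 1 or without MYCN KD replicate 1 the change was -0.28 in each case and did not pass (adjusted p = 0.0536 and 0.0624). Its exons overlap those of AIFM2 on the other strand, which was at 12.8 to 19.4 RPKM, and whether strand was used in counting is not stated, so reads of the overlap cannot be told apart. Both MYCN KD samples had more AIFM2 than either Ctrl sample, and its part in the level of H2AFY2 was not tested. Exons of H2AFZ and H2AFY also overlap genes on the other strand, among them H2AZ1-DT and PITX1-AS1, for which no level was listed. H2AFY was 2.91 and 3.09 times H2AFY2 in the Ctrl samples and 2.97 and 2.81 times in MYCN KD. This ratio overlapped between the groups (difference -0.05 on the log2 scale, exact two-sided permutation p = 0.6667). APLF, a macroH2A chaperone, was listed at no more than 0.0715 RPKM and was not tested.

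H2A.J is an H2A variant found in mammals and known for its accumulation in senescent cells. H2AFJ lies on chromosome 12 from 14927339 to 14930936 on the plus strand. It had the lowest level of the 9 genes, at 20.5 and 18.8 RPKM in the Ctrl samples and 26.4 and 28.7 RPKM in MYCN KD. Both MYCN KD samples were above both Ctrl samples. Its mean rose from 19.6 ± 1.21 to 27.6 ± 1.63 RPKM, by 40.5%, with a log2 fold change of 0.47 (SE 0.0716, 95% interval 0.26 to 0.68, adjusted p = 0.0161 by limma). This was the largest rise among the variant genes, and 75.1% of all tested genes had a smaller absolute change.

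H3.3 is encoded by H3F3A and H3F3B, which give the same protein. H3F3B lies on chromosome 17 from 73772515 to 73781974 on the minus strand. It was at 159.9 and 174.4 RPKM in the Ctrl samples and at 211.7 and 194.7 RPKM in MYCN KD, with no overlap. Its mean rose by 21.6%, with a log2 fold change of 0.28 (SE 0.0715, 95% interval 0.07 to 0.49, adjusted p = 0.0475 by limma). This call was close to the threshold: without Ctrl replicate 1 or without MYCN KD replicate 1 the change was 0.22 in each case and did not pass (adjusted p = 0.106 and 0.115), nor did it without the filter on low values or the eBayes trend (0.0732 and 0.0513). UNK on the other strand overlaps its exons and was lower in both MYCN KD samples, at 20.1 and 21.1 RPKM, than in either Ctrl sample, the lower of which was at 23.7 RPKM. The part of UNK reads in the level of H3F3B was not tested.

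H3F3A, on chromosome 1 from 226249552 to 226259720, was listed at 0 in all 4 samples, although nearly every human cell uses it. The adjoining row for its pseudogene copy H3F3AP4 was also at 0, while the next genes on either side, SDE2 and ACBD3, reached 11.4 and 19.8 RPKM. Of 73 rows with a symbol starting with HIST, 13 were at 0 in all samples, among them the near-identical pairs HIST2H4A and HIST2H4B, HIST2H3A and HIST2H3C, and HIST2H2AA3 and HIST2H2AA4. Whether reads shared between copies were dropped in counting was not tested, and the total of H3.3 transcripts is therefore not given. H3F3C, a copy of H3F3B without introns that encodes a related H3 variant, was at 4.29 and 4.44 RPKM in the Ctrl samples and 5.37 and 5.17 RPKM in MYCN KD (log2 fold change 0.22, adjusted p = 0.0278 by limma), and its reads and those of H3F3B may not be fully separable. H3F3C was not called when any 1 of the 4 samples was left out. CENPA, the centromeric H3 variant, was at -0.34 on the log2 scale and did not pass (adjusted p = 0.0524). These were the 2 genes that could be tested of 14 other histone variants, most of them specific to the germ line, of which 10 were at 0 in every sample.

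H3.3 is deposited by the HIRA complex at genes and by DAXX with ATRX at repeats. Of 8 genes of these pathways 7 were tested and 3 fell (22.8% of all tested genes), with a median log2 fold change of -0.01. DEK, an H3.3 chaperone, fell by 0.49 on the log2 scale (adjusted p = 0.0173), and the HIRA complex members UBN1 and HIRA fell by 0.47 (adjusted p = 0.0106) and 0.28 (adjusted p = 0.0101), while 0 rose. ATRX was nearly level, at 4.22 and 4.02 RPKM in the Ctrl samples and 3.99 and 4.18 RPKM in MYCN KD. DAXX was listed at no more than 0.0426 RPKM and was not tested. Whether reads of DAXX were lost in counting was not examined, so this value is not read as absence of its transcript.

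The linker histones H1.0 and H1x bind the DNA between nucleosomes. H1F0 lies on chromosome 22 from 38201236 to 38203439 on the plus strand, and H1FX on chromosome 3 from 129033614 to 129035129 on the minus strand. H1F0 was at 173.4 and 178.8 RPKM in the Ctrl samples and at 229.7 and 223.1 RPKM in MYCN KD, with no overlap and close replicates. Its mean rose by 28.6%, with a log2 fold change of 0.36 (SE 0.0369, 95% interval 0.25 to 0.47, adjusted p = 0.00779 by limma), the smallest adjusted p of the 9 genes.

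H1FX was at 295.5 and 266.9 RPKM in the Ctrl samples and at 295.1 and 325.7 RPKM in MYCN KD. The lower MYCN KD sample lay just under the higher Ctrl sample, and the log2 fold change of 0.14 did not pass (SE 0.0823, 95% interval -0.10 to 0.38, adjusted p = 0.231 by limma). It was 0.22 without Ctrl replicate 1, 0.21 without MYCN KD replicate 1 and 0.07 without replicate 2 of either group, and did not pass in any of these. Under quantile normalization it was 0.25 and passed (adjusted p = 0.0474 by limma). Its antisense gene H1FX-AS1 was at no more than 1.78 RPKM. H1F0 was 0.587 and 0.670 times H1FX in the Ctrl samples and 0.779 and 0.685 times in MYCN KD. This ratio did not overlap between groups (difference 0.22 on the log2 scale, exact two-sided permutation p = 0.3333, again the smallest possible). The difference was 0.12 without Ctrl replicate 1 and 0.13 without MYCN KD replicate 1, and it was 0.31 without replicate 2 of either group.

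The chaperones of H2A-H2B, macroH2A and linker histones had the lowest median of the 3 groups of factors that handle these variants. Of 8 such genes 7 were tested, 5 fell and 0 rose by limma (22.8% and 25.3% of all tested genes), with a median log2 fold change of -0.52. NASP, which carries H3-H4 and linker histones, fell from 49.3 and 55.2 RPKM to 31.1 and 27.9 RPKM (log2 fold change -0.80, SE 0.0893, adjusted p = 0.00889). PTMA, a chaperone of linker histones, fell from 1330 and 1362 RPKM to 822.3 and 805 RPKM (-0.73, adjusted p = 0.00359). SSRP1, a subunit of the H2A-H2B chaperone FACT, and NAP1L1 fell by 0.70 and 0.52, while the other FACT subunit SUPT16H was at -0.37 and did not pass (adjusted p = 0.0821).

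Over all 29 deposition and eviction factors, 27 were tested, 13 fell and 0 rose by limma, where 22.8% of all tested genes fell, 25.3% rose and 48.1% were called in either direction. At an unadjusted p under 0.05, 16 were lower and 1 was higher, and limma voom on recovered reads called 13 lower and 0 higher. After each sample was rescaled to the same total, 1 gene of the list was called higher. The median was -0.24, against 0.03 for all tested genes.

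**Figure D5:**
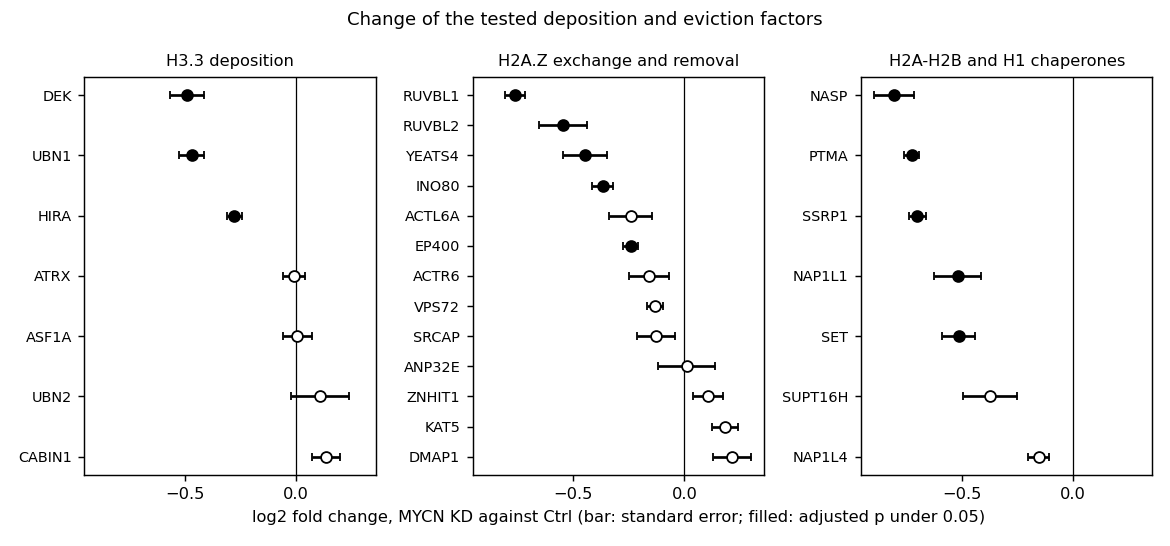
Log2 fold change of 27 tested deposition and eviction factors, MYCN KD against Ctrl, with standard errors as bars, in panels for H3.3 deposition, H2A.Z exchange and removal, and chaperones of H2A-H2B and H1. Filled points passed an adjusted p of 0.05 by limma, all of them at negative values. DAXX and APLF were below the filter on low values and are not drawn.

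The chaperones of H3 that act at the replication fork, listed with the CENPA chaperone HJURP, gave 5 lower and 0 higher of 7 tested by limma (22.8% lower and 25.3% higher among all tested genes), the same numbers as at an unadjusted p under 0.05 and by limma voom, with MCM2 (-0.67), CHAF1A (-0.63) and CHAF1B (-0.53) the largest. Of 20 markers of cycling cells, which include MCM2 again, 14 fell (22.8% of all tested genes) and 0 rose (25.3%). These numbers were also the same at an unadjusted p under 0.05 and by limma voom. PCNA (-1.18), CDC6 (-0.76) and AURKA (-0.70) fell most. Their summed level was 2094 to 2137 RPKM in the Ctrl samples and 1528 to 1544 RPKM in MYCN KD, and its part in the changes of the variant genes was not tested. Of 69 replication-dependent histone genes 26 were tested, 14 rose (25.3% of all tested genes) and 1 fell (22.8%), with a median log2 fold change of 0.47. The other 43 had a mean under 1 RPKM, 10 of them at 0 in every sample. How far transcripts without polyadenylation were captured was not tested, so these levels may not stand for all S phase histone transcripts. HIST1H3E (1.53), HIST1H4H (1.09) and HIST2H2BE (0.97) rose most, and HIST1H4C fell (-0.86). With Ctrl replicate 1 or either MYCN KD sample left out, 2 of these genes fell, and with a mean of at least 5 RPKM required, 6 rose.

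The order of the variant genes by RPKM, which is per length, differed between the groups. In Ctrl, H2AFZ (386.2 RPKM) was followed by H1FX (281.2 RPKM) and H2AFX (250.7 RPKM), then by H1F0, H3F3B and H2AFY. The neighbours among these last 3 overlapped. In MYCN KD, H1FX (310.4 RPKM) and H2AFZ (275.5 RPKM) overlapped at the top, H1F0 (226.4 RPKM) came next, and H3F3B (203.2 RPKM) overlapped with H2AFX (192.8 RPKM). H2AFY, H2AFY2, H2AFV and H2AFJ came last in both, and H2AFY2 and H2AFV overlapped in MYCN KD only. H2AFZ was above 98.8% of tested genes in the Ctrl samples and 98.3% in MYCN KD, and H2AFJ above 67.5% and 75.1%.

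The summed level of the family was 1513 and 1567 RPKM in the Ctrl samples and 1471 and 1435 RPKM in MYCN KD. H2AFZ made up 23.1% and 27.0% of that sum in the Ctrl samples and 20.5% and 17.4% in MYCN KD. H1F0 went from 11.5% and 11.4% to 15.6% and 15.5%, and H3F3B from 10.6% and 11.1% to 14.4% and 13.6%. The share of H2AFX was 17.3% and 15.3% in the Ctrl samples and 12.5% and 14.0% in MYCN KD. H3F3A adds nothing to these sums because it was listed at 0.

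By the Euclidean distance between log2 profiles over the 4 samples, each centred on its own mean, MDH2 (0.00598) and WRAP73 (0.00613) were among the tested genes most like H2AFX. Those most like H2AFJ were C1orf233 (0.00774), PTPRN2 (0.00891) and SLC38A7 (0.0109). With 4 samples and many changed genes, such nearness is a description only.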

How the data were processed

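RNA-seq values of 2 Ctrl and 2 MYCN KD samples were used, grouped by the sample titles. Per the labels and the study's methods, HISAT2 2.1.0 aligned the reads to hg19, featureCounts assigned them to RefSeq genes, and DESeq2 and RUVSeq modelled the counts and took out unwanted variation. The authors then turned the adjusted counts into RPKM, the unit deposited. Taking out unwanted variation can shrink the replicate spread, and whether it did was not tested. Strand setting and number of removed factors are not given in the sources used here.

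The test was limma (version 3.58.1, under R 4.3.3; eBayes with a trend, no block, two-sided) on log2(RPKM + 1) for the 11409 genes with a mean of at least 1 RPKM, with Benjamini-Hochberg adjustment over all of them. A pseudocount of 1 understates changes of low genes. Whole reads were recovered from the RPKM values for 99.98% of 19904 genes above 0. The 4 rows of 2 spreadsheet dates that occur more than once name no single gene and were dropped, while the 18 tested rows with another such date stayed in the fit. Ratios were tested by exact permutation. Alternatives were another pseudocount (0.1), other filters, scalings and fits, and each sample left out. Motifs were searched in RefSeq promoter windows, and gene positions are those of GENCODE on GRCh37. The fit was also run on simulated counts drawn independently for each sample. These lack the mirror-image replicate deviations of the real values, so the simulation cannot give the error rate of the calls here.

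The 10 variant genes were taken by symbol and not by their values. Earlier results of these data were known when they and the lists were chosen. All 10 variant genes are named, and from other lists the genes past the threshold with the largest change (at most 6 deposition factors, otherwise 3). Further factors (YEATS4, INO80, EP400, SRCAP, ANP32E, SUPT16H, ATM, ATR, DEK, UBN1, HIRA, ATRX, CENPA, AIFM2, UNK, H1FX-AS1 and marker genes, and genes below the filter) were named for their roles after their values were seen. For H2AFX and H2AFJ the 3 genes with the nearest profiles were taken, of which 1 is not reported here. Python 3.11.15 was used for tables and figures.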

Additional observations from a re-analysis of the deposited data

How the results depend on the processing

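The direction of each tested variant gene was the same under all 13 alternatives. The other filters, eBayes without a trend and the replicate blocks leave the log2 fold change itself unchanged by construction, so they do not test direction. Nor can leaving out 1 sample reverse the direction of the 7 variant genes whose groups did not overlap. H2AFX, H2AFY, H2AFJ, H1F0 and MYCN kept their calls in all of the alternatives that gave a value. H3F3B (0.28) did not pass when low genes were kept (no filter, adjusted p = 0.0732 by limma) or with eBayes without a trend (0.0513). H1FX passed under quantile normalization (0.25, adjusted p = 0.0474). When each sample was left out in turn, the change ranged from -0.62 to -0.35 for H2AFZ, from -0.31 to -0.28 for H2AFY2, from 0.22 to 0.34 for H3F3B, from 0.01 to 0.26 for H2AFV and from 0.07 to 0.22 for H1FX, the lone sample of a group being assumed to vary like the others. The cause of these shifts was not tested. With mirror-image replicates, leaving out replicate 1 of either group gave nearly the same change, and so did leaving out replicate 2. The 4 runs are therefore not 4 separate checks.

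With a replicate block, H2AFZ passed (-0.48, adjusted p = 0.00126), H2AFY2 (-0.29, 0.0995) and H3F3B (0.28, 0.0872) did not, 0 other histone variants were higher and 2 replication-dependent histones were lower. Replicates of the same number deviated in opposite directions (r = -0.98). As unwanted variation had been taken out beforehand, this cannot show which samples, if any, were handled together. A crossed replicate block, chosen after seeing the data, called 5 variant genes higher, 5909 of all genes higher and 5261 lower, 6 deposition factors higher and 20 lower, 4 γH2AX genes higher and 10 lower, 1 other variant lower, 1 replicative chaperone higher and 4 replication-dependent histones lower. It passed H2AFZ (-0.48), H2AFV (0.13) and H1FX (0.14).

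With a mean of at least 5 RPKM, 1867 of all genes were higher, 0 other variants were higher and 1 lower, and 6 replication-dependent histones were higher and 0 lower. Without the filter, 2 other variants were higher and 3 replication-dependent histones lower. Rescaling to the same total called 1 deposition factor, 1 γH2AX gene and 1 replicative chaperone higher. Quantile normalization called 1 γH2AX gene higher and 6 lower, 1 other variant lower and 2 replication-dependent histones lower. Leaving out samples in turn gave 0 to 0 other variants higher, 0 to 1 lower and 1 to 2 replication-dependent histones lower. Limma voom on recovered reads, also chosen after seeing the data, changed no call of a variant gene and moved no count of calls by over 1.5 times. Depth did not limit the tested variant genes, each with at least 2203 reads in every sample, whereas H3F3A was listed at 0.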
